A study of Mus musculus with 6 samples.

Results

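Mouse neural stem cells carried 3503 broad blocks of H3K27me3 that were also marked in the neurons made from them and that had no gene start site inside or within 50 kb. They were 13.2% of the 26539 H3K27me3 peaks listed for the stem cells and came from 107854 peaks over the 4 peak lists of the study. A block belonged to the set when it was a stem cell H3K27me3 peak of at least 5000 and under 20000 bp, overlapped a neuronal H3K27me3 peak by at least 1 bp, and lay over 50 kb from the start site of each of the 18778 genes in the deposited gene tables. Such blocks are called shared distant domains here. The name gene-poor fits them only in part, since 956 of them (27.3%) overlapped the body of a tabled gene whose start site was over 50 kb away.

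H3K27me3 is trimethylation of lysine 27 of histone H3. Polycomb repressive complex 2 writes it, through its catalytic subunits EZH2 and EZH1, and Polycomb repressive complex 1 can bind it. The mark is best known from silent start sites of developmental regulators, where in stem cells it may lie together with H3K4me3, which marks promoters in use or ready for use. It also spreads as broad, shallower blocks over silent genes and over the DNA between genes.

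The data were ChIP-seq libraries of C57BL/6 cells. Neurons came from cultures differentiated for 11 days, with 4 days in a first medium and 7 days in a second, and were sorted as cells positive for RedStar, a red reporter driven by the Tau (Mapt) promoter. The starting neural stem cells (NSCs), a line made from embryonic stem cells, were taken at passages 25 to 30, at day 0 and without RedStar signal, so the NSCs and the neurons belong to 1 culture system and the sort picks cells by Mapt promoter activity. Each cell type had 1 H3K27me3, 1 H3K4me3 and 1 input library, 6 samples in all, so no difference between neurons and NSCs has a replicate check, no test across samples was possible, and the intervals below cover counting error only.

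The 4 peak lists held between 983266 and 3623654 ChIP reads inside peaks. A start site counted as marked when a listed peak lay within 1000 bp of it. By that rule H3K4me3 lay at Dcx, Mapt and Tubb3 in neurons and at Mapt, Syt1 and Tubb3 in NSCs, of 5 neuronal markers found in the gene tables. All of the 5 progenitor markers (Hes5, Nes, Pax6, Sox2 and Vim) were marked in neurons and 4, all but Pax6, in NSCs. The astrocyte marker Slc1a3 was marked in neurons, and S100b and Slc1a3 in NSCs, of 3 found. For the oligodendrocyte lineage, Olig1 and Olig2 were marked in both, of 3 found. Neither of the pluripotency markers was in the tables. H3K4me3 at these markers therefore did not separate the cell types, and the part that other cells play in the domains was not tested.

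The shared distant domains covered 29.2 Mb, which was 16.9% of the length called for H3K27me3 in NSCs, and held 508638 NSC reads, 15.5% of the reads in that list. Their median width was 7200 bp, against 7800 bp for the 6254 shared domains of the same width range that had a start site within 50 kb, called near-gene domains below. The number of members fell with width: 1542 were under 7000 bp wide, 1091 had 7000 bp or more but under 10000 bp, 650 had 10000 bp or more but under 15000 bp, and 220 had 15000 bp or more. A start site lay at 50 to 100 kb from 1579 members, at 100 to 200 kb from 1258, at 200 to 500 kb from 591 and at over 500 kb from 75.

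Marking in neurons was part of the choice of members, so its frequency is a description. Of the 4827 NSC domains of this width without a start site in reach, 72.6% (95% exact binomial interval 71.3 to 73.8%) overlapped a neuronal peak, against 81.4% (80.5 to 82.2%) of the 7686 with one, and 78% of the 12513 domains together. Read density on both sides of each border of the rule was as follows. The 209 members of 5000 bp had a median of 20 neuronal and 15.6 NSC reads per kb, and the 201 domains of 4800 bp that met the other criteria had 19.5 and 15.2. At the upper border, the 13 widest members had 22.5 neuronal and 18.5 NSC reads per kb, and the 20 domains just over the limit had 22.0 and 20.5. By distance, the 52 members with a start site at 50 to 51 kb had 19.7 neuronal and 17 NSC reads per kb, and the 37 domains with one at 49 to 50 kb had 20.5 and 17.3. A false discovery rate (FDR) under 1e-20 in the NSC list was given for 20 of these 52 members (38.5%) and for 21 of these 37 other domains (56.8%). With neuronal reads divided by the whole NSC domain, the ratio to NSC reads was below 1/1.5 in 8 of the 13 widest members (61.5%) and in 6 of the 20 domains just over the limit (30%).

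Read density was low and even over the set. Reads per kb are ChIP reads divided by peak length, without scaling for depth. For the neuronal value, reads of all overlapping neuronal peaks were summed and divided by the summed length of those peaks. The median member had 20.3 reads per kb in neurons, with extremes of 11.5 and 92.3, and 16.1 reads per kb in NSCs, with extremes of 9.42 and 62.5. Near-gene domains had medians of 20.7 in neurons and 17.5 in NSCs. The inputs over members had medians of 8.24 reads per kb in neurons and 9.14 in NSCs. The fold over input had a median over members of 2.56 in neurons and 2.41 in NSCs. Over near-gene domains it was 2.81 in neurons and 2.72 in NSCs. The NSC fold is the authors' value. The neuronal fold was recomputed from the summed reads of the overlapping neuronal peaks and the constant of that list. The median fold was thus lower over distant than over near-gene domains in each cell type. In the NSC list, 1341 members (38.3%) had an FDR under 1e-20, against 51.2% of the 9757 shared domains of this width and 58.4% of near-gene domains.

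The limits on width applied to the NSC peaks and to no neuronal peak, so shorter neuronal peaks and partial cover can follow from the choice of members. The part of that choice was not tested. The members met 4770 neuronal peaks of a median 3600 bp, and 1198 members (34.2%) met more than 1, against 37.1% of shared domains. Neuronal peaks covered 18.1 of the 29.2 Mb, or 62.0%. The median member was covered to 61.9%, and the median near-gene domain to 65.4%. Neuronal peaks covered 285 members (8.14%) from end to end, against 7.7% of shared domains, and covered 1258 members (35.9%) to less than 50%, against 33% of shared domains. On the other side, 168 neuronal peaks bridged gaps and joined 2 or more members. Only 393 members matched 1 neuronal peak with at least 80% overlap of each on the other. When the rule was started from the neuronal list instead, the 2166 neuronal domains had a median width of 7000 bp, the NSC peaks they met had a median of 6600 bp and covered the median neuronal domain to 88.0%, and 20.2% met more than 1 NSC peak.

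The direction of the change in neurons depended on what was divided by what. The ratio of neuronal to NSC reads per kb had a median of 1.25 over members, with quartiles of 1.09 and 1.42 and extremes of 0.541 and 4.14, and a median of 1.16 over near-gene domains. The ratio of the folds over input, which scales each library to its own input, had a median of 1.06 over members and 1.01 over near-gene domains. When neuronal reads were shared out over the whole NSC domain, so that uncovered parts counted as empty, the median turned below 1, to 0.738 over members and 0.718 over near-gene domains. Before any scaling for depth, the neuronal reads were denser than the NSC reads where a neuronal peak stood, on less of the domain. H3K27me3 peaks with identical bounds in both cell types numbered 114 and held 0.981 times as many reads in neurons as in NSCs, and 0.784 times as many input reads.

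The share of members called for a change past 1.5-fold depended on the measure. The ratio was above 1.5 in 596 members (17%), against 13.3% of all shared domains of this width and 11.2% of near-gene domains. It was below 1/1.5 in 13 members (0.371%), against 0.902% of all shared domains and 1.20% of near-gene domains. By the ratio of folds over input, 376 members were above 1.5 (10.7%, against 10.3% of shared domains) and 189 were below 1/1.5 (5.4%, against 6.88%). With reads shared out over the domain, 92 members were above 1.5 (2.63%, against 2.13%) and 1500 were below 1/1.5 (42.8%, against 43.4%). Neither of the last 2 measures set the members far from the background of shared domains.

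**Figure D1:**
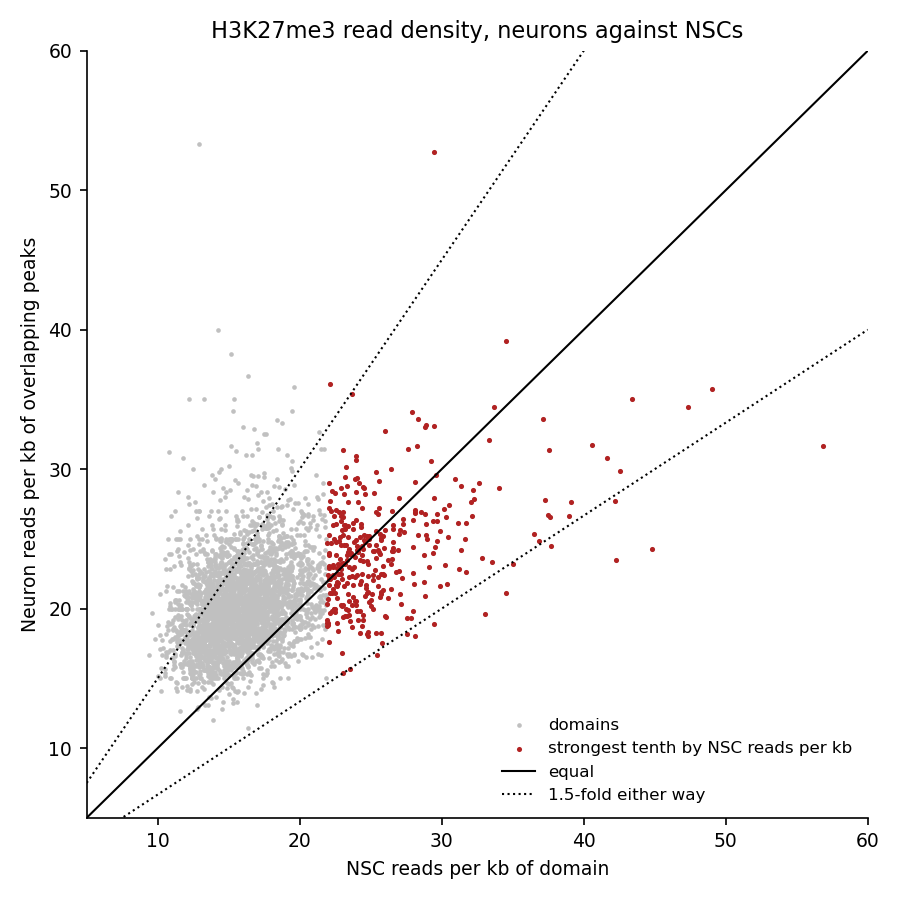
Each point is a shared distant domain. The horizontal axis gives NSC H3K27me3 reads per kb of domain and the vertical axis neuronal H3K27me3 reads per kb of the overlapping neuronal peaks, both up to 60, which leaves out the domain before Crem at 92.3 and 62.5. Red points are the 351 domains with the most NSC reads per kb, that one aside, the solid line marks equal density and the dotted lines a 1.5-fold difference. The cloud lies mostly above the line of equal density, and 232 of the red points lie below it.

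The ratio moved with the NSC level, which is also its denominator. Over 5 equal classes of the members from the fewest to the most NSC reads per kb, the median ratio was 1.48, 1.35, 1.24, 1.16 and 1.00, while the median covered share was 44.1, 51.6, 61.4, 70.5 and 81.2%. Among the 351 members with the most NSC reads per kb the median ratio was 0.940, and 232 of them had a ratio below 1. The 2166 domains chosen from the neuronal list had a median ratio of 1.16, and the 218 of them with the most neuronal reads per kb had a median of 1.22, with 167 above 1. Each of these groups of strongest domains was ranked by reads per kb that are also a term of the ratio. Their ratios are therefore a description and do not measure a lean to either cell type. Across the 3503 members, Spearman's rho between neuronal and NSC reads per kb was 0.406, and between the inputs of the 2 libraries 0.480. This describes these libraries only, since neighbouring domains are not independent and the inputs vary together as well. Among the 393 members with 80% mutual overlap rho was 0.544.

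Wider domains were denser, and domains of 10000 bp or more had a higher median covered share than narrower ones. From the narrowest to the widest of the 4 width classes, median density in neurons was 19.9, 20.2, 20.9 and 21.8 reads per kb, and in NSCs 15.4, 16, 17.1 and 18.9 reads per kb. The median ratio over the same classes was 1.28, 1.26, 1.20 and 1.12, and the covered share 60, 58.1, 66.7 and 73.6%. The share of members covered from end to end was 10.1, 6.23, 7.38 and 5.91%. By distance from a start site, folds and FDR moved more than the ratio did. From 50 to 100 kb up to over 500 kb, the 4 classes had median ratios of 1.24, 1.24, 1.27 and 1.34 and covered shares of 61.3, 62.7, 60 and 68%. The median fold over input was 2.64, 2.55, 2.43 and 2.22 in neurons and 2.45, 2.40, 2.40 and 2.16 in NSCs, and the share with an NSC FDR under 1e-20 was 39.4, 38.4, 37.2 and 21.3%. The farthest class had 75 members, and chromosome 1, where input was higher, held 14.6, 16.9, 19.5 and 36% of the classes. Members inside tabled genes had medians of 20.4 neuronal and 16.1 NSC reads per kb, and those outside had 20.2 and 16.1.

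The 10 domains with the highest NSC density or the lowest neuron-to-NSC ratio show what the set holds at its strong end. They are plotted with the counting intervals of their reads. The domain with the highest density, chr18:3003401-3012200 (mm9, as all positions here), lies before Crem, a cAMP-responsive transcription factor gene 326 kb away. It had 92.3 neuronal and 62.5 NSC reads per kb, but its NSC input held 649 reads where the ChIP held 550, and its neuronal peak held 277 ChIP and 202 input reads. Its fold over input was only 1.44 in neurons and 1.18 in NSCs, the lowest NSC fold in the set.

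A pair of neighbouring domains between Pdcd1, the gene of an immune checkpoint receptor, and Fam174a came next. At chr1:96403001-96409600 the neuronal peak had 31.7 reads per kb (95% exact Poisson interval 28.1 to 35.6) and the NSC domain 56.8 (51.2 to 62.9), a ratio of 0.557. This domain stands on 285 neuronal reads over 113 input reads and on 375 NSC reads over 58 input reads, and its fold of 9.04 in NSCs, the highest over all members, compared with 2.65 in neurons. Beside it, chr1:96390001-96402000 had 35.8 neuronal and 49 NSC reads per kb.

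The other domains of high NSC density stood at genes of varied function. At chr6:100078401-100093800, on the side of Rybp, a subunit of Polycomb repressive complex 1 whose start site was 144 kb away, the values were 34.5 reads per kb in neurons and 47.3 in NSCs. Within Rims1, which encodes a scaffold of the presynaptic active zone, chr1:22529201-22547000 had 35.0 reads per kb in neurons and 43.4 in NSCs. Between Cryaa, a lens crystallin, and the kinase gene Sik1, chr17:31898001-31903200 had 24.3 neuronal (20.3 to 28.8) and 44.8 NSC reads per kb (39.2 to 51). That ratio of 0.541 was the lowest over all members, and the neuronal peak had nearly the same bounds as the NSC domain.

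Further domains were named for the lowest ratios over all members, so that fewer neuronal reads per kb follow from how they were chosen. A 19800 bp domain within Bnc2, a zinc finger gene, at chr4:84179001-84198800 had 23.5 neuronal and 42.3 NSC reads per kb, from 526 neuronal and 837 NSC reads. A domain on chromosome 3 between Mecom, 269.0 kb away, and Arpm1, 80.3 kb away, had 19.6 neuronal and 33.0 NSC reads per kb, one within Herc6 had 21.1 and 34.5, and one within Fat3, an atypical cadherin gene, had 18.0 and 28.1. Neuronal peaks covered 93.9% of the domain in Bnc2, 94.1% of that between Mecom and Arpm1, 100% of that in Herc6 and 64.1% of that in Fat3.

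**Figure D2:**
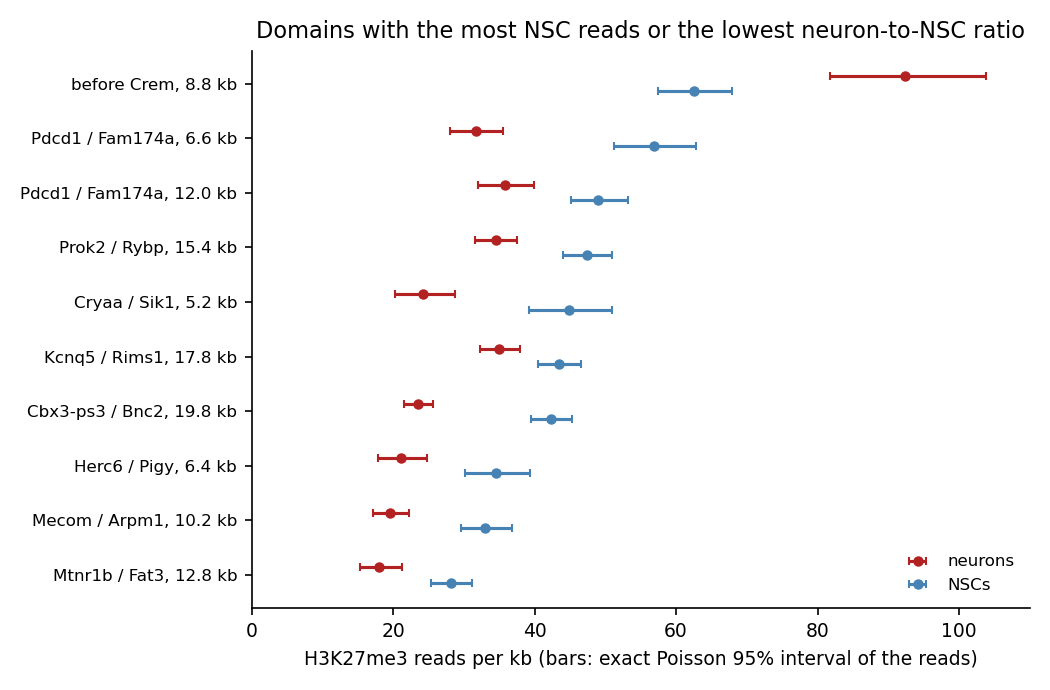
Domains with the most NSC reads per kb or the lowest neuron-to-NSC ratio, named by the flanking start sites with a symbol and by width, with H3K27me3 reads per kb on the horizontal axis. Red points above are neurons and blue points below are NSCs, 1 library each, and the bars are exact Poisson 95% intervals of the reads. Neurons lie below NSCs in 9 of the 10 domains, which follows in part from how they were chosen, and above in the domain before Crem.

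At the other extreme, the high ratios rested on short neuronal peaks. The 6 highest ratios, from 2.62 to 4.14, belonged to domains of 5000 to 6800 bp whose neuronal peak was 600 to 1200 bp long, held 21 to 37 reads and covered 4.0 to 17.6% of the domain. Beside Lelp1, a gene of the epidermal differentiation complex, 32 neuronal reads stood in 600 bp, which gave 53.3 reads per kb (36.5 to 75.3), against 12.9 (9.99 to 16.4) over the NSC domain. With reads shared out over the domain the same 6 had ratios from 0.116 to 0.478, all below 1.

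Shared distant domains came in runs. The median gap from a member to the nearest other member was 11.2 kb, with quartiles of 2.2 and 63.0 kb, and the smallest gap was 0.8 kb. Near-gene domains stood a median of 8.4 kb from each other, whereas the 1324 distant NSC domains without a neuronal peak stood 115.8 kb from each other. A neighbour lay within 20 kb of 60.1% of members, 65.5% of near-gene domains and 25.0% of distant NSC-only domains, and within 100 kb of 78.4%, 85.5% and 48.3%. These sets differ in number, and a larger set has closer neighbours, so the gaps are a description of each set.

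**Figure D3:**
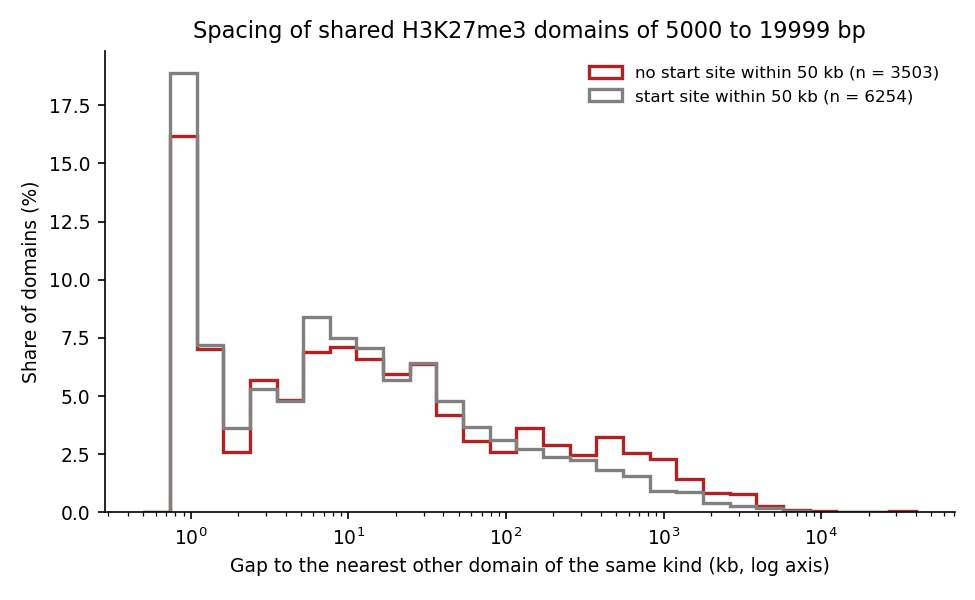
Share of domains, in percent on the vertical axis, by the edge-to-edge gap to the nearest other domain of the same kind in kb on a log axis. The red line stands for the 3503 shared distant domains and the grey line for the 6254 shared near-gene domains. Both pile up at gaps near the smallest one of 0.8 kb, and the distant domains have more of their gaps above 100 kb.

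Members linked by gaps of up to 100 kb made 1413 groups, of which 758 were single domains and 655 held 2 or more. Runs of 5 or more numbered 173 and held 1500 members (42.8%), and 42 runs of 10 or more held 638. Runs were not counted for near-gene domains, which more often had a neighbour within 100 kb (85.5%, against 78.4% of members). The longest, chr1:75687601-77027800, held 44 members over 1340.2 kb between Slc4a3, an anion exchanger gene, and Epha4, which encodes an ephrin receptor of axon guidance. Its members made up 29.1% of the span. It held 136 neuronal and 88 NSC H3K27me3 peaks of any width, which covered 49.8% of it in neurons and 44.3% in NSCs. The members' density ranged from 15.6 to 28.9 reads per kb in neurons, around a median of 21.6, and from 13.2 to 28.9 in NSCs, around 17.1.

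The next 2 runs differed in which cell type had more of the span covered. Between Ets1, an ETS-family transcription factor gene, and Kirrel3, which encodes a synaptic adhesion protein, chr9:32784601-33454000 held 30 members. Here 70 neuronal peaks covered 42.8% of the span and 56 NSC peaks covered 59.3%, and the members' median density was 20.6 reads per kb in neurons and 17.9 in NSCs, a median ratio of 1.07. Between Psmd7, a proteasome subunit gene, and Zfhx3, a zinc finger and homeobox factor gene, chr8:110335801-111132400 held 28 members, with 97 neuronal peaks over 56.5% of the span and 60 NSC peaks over 52.8%. The whole neuronal list is the longer one, with 36053 H3K27me3 peaks in neurons against 26539 in NSCs, 1.36 times as many. Set beside that, neurons had 1.55 times as many peaks as NSCs in the run before Epha4, 1.25 times in the run beside Ets1 and 1.62 times in the run beside Zfhx3.

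**Figure D4:**
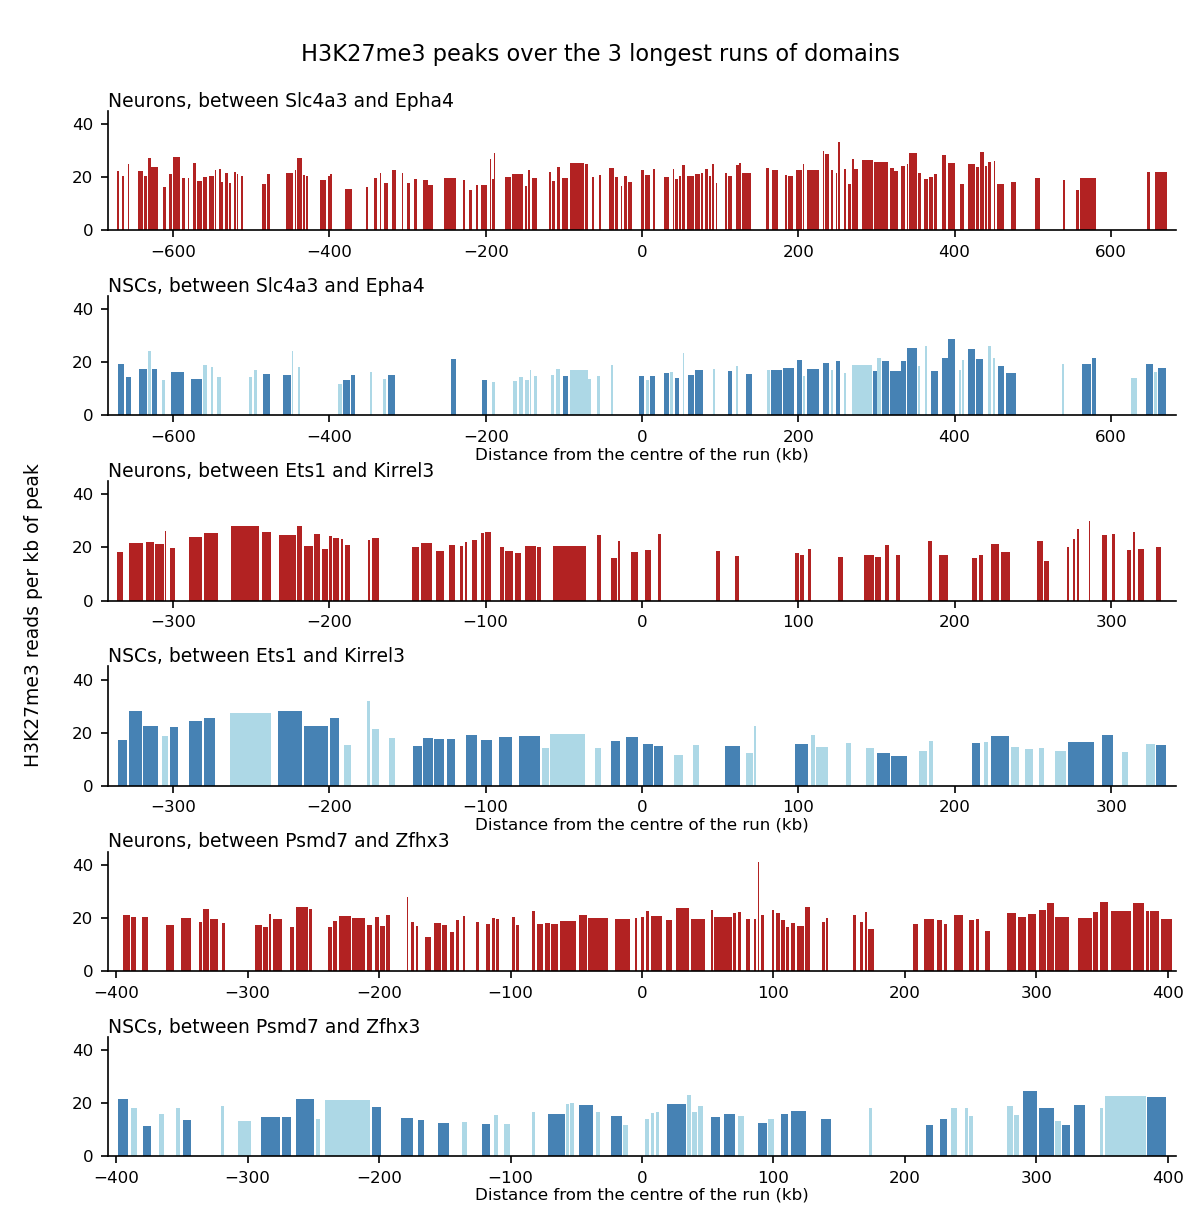
H3K27me3 peaks of any width over the 3 longest runs, with neurons above NSCs for each. The horizontal axis is the distance from the centre of the run in kb and the vertical axis the reads per kb of each peak. Blue bars are shared distant domains, pale blue bars are other NSC peaks and red bars are neuronal peaks. The runs hold 136 neuronal and 88 NSC peaks, 70 and 56, and 97 and 60, where the whole lists hold 36053 and 26539.

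The most compact of the large runs lay between Tle3, a Groucho-family co-repressor gene, and the ribosomal protein gene Rplp1. There 21 members made up 66.8% of 394.6 kb, with a median gap of 1.3 kb inside the run. Peaks covered 90.3% of this span in neurons and 87.1% in NSCs, and median density was 25.3 reads per kb in neurons and 21.9 in NSCs. An H3K4me3 peak overlapped 0 of the 21 members in neurons and 10 in NSCs. Between Prox1, a homeodomain factor gene of dentate granule cells, and Rps6kc1, 23 members made up 46.9% of 455.8 kb. H3K4me3 overlapped 5 of these 23 members in neurons and 7 in NSCs. Over all members, H3K4me3 overlapped 5.62% in neurons and 7.71% in NSCs. The run beside Prox1 lies on chromosome 1, where these shares were 18.6% and 13.7%.

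Most of these stretches held no further protein-coding gene. Start sites with a symbol bounded 1083 intervals that held 3492 members, and the median distance between the bounding start sites was 459 kb. The gene order of RefSeq (GRCm38.p6, used for names and order only) put no further protein-coding gene in 732 of these intervals, which held 2616 members (74.9%), and 1 further gene in intervals with 583 members. RefSeq listed 10 or more further coding genes in intervals with 63 members, and chemosensory receptor genes outside the tables in intervals with 77 members. It also listed a long non-coding RNA gene in intervals that held 2807 members (80.4%) and a microRNA gene in those of 299. The distance of 50 kb therefore refers to the tabled genes and not to every transcript.

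Intervals with 10 or more members numbered 67 and held 1022 members (29.2%). The interval between Ets1 and Kirrel3 held 46, the one between Slc4a3 and Epha4 45, and the one between Psmd7 and Zfhx3 31. Next came Adra2a, the alpha-2A adrenergic receptor gene, to Gpam, a glycerolipid synthesis gene, with 25. Between 4931429L15Rik and the adhesion gene Cadm1 there were 24, and between the paired IgLON adhesion genes Opcml and Ntm another 24, of which 22 lay inside genes. Epha4 to Pax3, a factor of neural crest and dorsal neural tube, held 23, as did Prox1 to Rps6kc1. Slc35b3 to Ofcc1 held 22, and Tle3 to Rplp1 held 21.

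Ratios in these 10 intervals stayed within a narrow band. Their median ratio of neuronal to NSC reads per kb ran from 1.07 between Ets1 and Kirrel3 to 1.35 between Prox1 and Rps6kc1. The single members of the interval between Ets1 and Kirrel3 spread from 0.777 to 1.65, which was wider than the range of the medians. By folds over input the Ets1 interval had a median ratio of 0.954 and the Slc35b3 interval, 1.33 by reads per kb, had 1.24.

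Start sites that bounded the domains were more often H3K27me3-marked than those of all genes. Of the 1921 genes with a symbol that flanked a member, 33.9% (31.8 to 36.1%) had an H3K27me3 peak at the start site in neurons and 36.7% (34.5 to 38.9%) in NSCs, against 16.7% and 18.2% of all 14600 genes with a symbol. H3K4me3 lay at 57.1% of flanking start sites in neurons and at 65.7% in NSCs, against 70.5% and 79.6% of all. The 158 genes that flanked 10 or more members had H3K27me3 at 41.1% in neurons and 44.9% in NSCs. Epha4, Pax3 and Lmx1a had both marks in both cell types. Adra2a had H3K27me3 alone in neurons and both marks in NSCs, and Ets1 and Ntm had H3K27me3 alone in both cell types. At Prox1, Slc4a3, Psmd7, Tle3 and Rplp1 the start site carried H3K4me3 alone in both cell types, so runs also lay between start sites without H3K27me3, as between Tle3 and Rplp1.

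Counted by nearest start site with or without a symbol, 1392 members (39.7%) were closest to a gene without one. Of named genes, Lmx1a, a LIM-homeodomain factor of roof plate and midbrain dopaminergic precursors, was nearest to the most members, 18, at distances of 57.8 to 352 kb. Adra2a and Myt1l, a neuronal zinc finger factor gene, had 14 each, and Ets1 and Prox1 had 12 each. The genes 4931429P17Rik, Gpam and Ppp4r2, a phosphatase subunit gene, had 11 each, and Fat3, Gm5908, Kcnt2, Mbd2 and Tle3 had 10 each. Median ratios of these groups ran from 0.969 around Ets1, with 21.7 reads per kb in neurons and 22.6 in NSCs, to 1.67 around 4931429P17Rik, with 23.3 in neurons and 14.3 in NSCs.

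Grouped by families, the nearest genes were few for each. Shares of members are over all 3503, and the 1392 closest to a gene without a symbol can fall in no family. Shares of genes are over the 14600 genes with a symbol, so a share of members is not on the same base as a share of genes. Potassium channel genes were nearest to 47 members (1.34%, interval 0.987 to 1.78%), against 0.799% of near-gene domains and 0.459% of all genes. These were 14 genes led by Kcnt2 with 10, Kcnh1 with 9 and Kcnq5 with 8. Kcnt2, Kcnh1 and Kcnq5 all lie on chromosome 1, which held 16.7% of members. Homeobox and other developmental factors were nearest to 38 members (1.08%) through 19 genes, with Neurod6 at 5 and Irx1, Nkx6-1 and Pax3 at 4 each, against 1.44% of near-gene domains and 1.25% of genes. Counted among all flanking genes instead of nearest ones, they were 47 of 1921 (2.45%, interval 1.80 to 3.24%) and 9 of the 158 that flanked 10 or more members (5.70%). Synaptic and guidance adhesion genes were nearest to 32 members (0.914%), of which Epha4 and Lrrtm1 had 8 each and Ntm 7, against 0.656% of near-gene domains and 0.568% of genes.

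The other 4 families had fewer members. Clustered olfactory and vomeronasal receptor genes were nearest to 20 members (0.571%), against 2.32% of near-gene domains and 0.966% of genes, but made up 28 of the 1921 flanking genes (1.46%, interval 0.971 to 2.10%) and 0 of the 158. The share of flanking genes lay above the share of all genes with a symbol in every family but zinc finger genes (1.15%, against 1.98%). It was 1.98% for synaptic and guidance adhesion (against 0.568%) and 0.937% for transmitter receptors (against 0.363%). For potassium channels it was 0.885% (against 0.459%) and for cadherins and protocadherins 0.729% (against 0.322%). For the olfactory and vomeronasal receptors the interval began at 0.971%, close to the 0.966% of all genes. The share of members by nearest gene also counts members closest to a gene without a symbol. The share of members therefore cannot be set against the share of genes. Zinc finger genes had 19 (0.542%, against 0.576% and 1.98%), cadherins and protocadherins 18 (0.514%, against 0.384% and 0.322%), with Pcdh9 at 6 and Cdh26 at 5, and transmitter receptors 15 (0.428%, against 0.656% and 0.363%). Median ratios by family ran from 1.20 for developmental factors to 1.43 for cadherins. Members near 1 gene share a neighbourhood and are not independent, and long genes with wide surroundings can be nearest to more domains.

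Inside genes, 909 of the 956 overlapping members lay wholly within a gene body, and 362 tabled genes held at least 1. Fgfr2 and Galnt2 topped the count with 25 and 18, but their tabled lengths of 3009 and 4435 kb compare with RefSeq lengths of 104 and 114 kb, so these members need not lie within the genes. Among 332 holding genes with a RefSeq length, 16 were tabled at over 2 times that length. Without them 894 members (25.5%) lay in a gene. Of genes tabled at no more than 2 times their RefSeq length, Ntm held 17, Dab1, a reelin signalling adaptor gene, 15 and Klhl29 15. The gene 1700112E06Rik and Odz2 (Tenm2), a teneurin of synaptic adhesion, held 13 each, the calcium channel gene Cacna1d 12, and the kainate receptor gene Grik4, Kif26b and the phosphodiesterase gene Pde4d 11 each.

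Several genes held enough domains to give a spread of their own. Over the 17 domains of Ntm, density ran from 17.5 to 25.1 reads per kb in neurons, around a median of 21.2, and from 11.4 to 24.8 in NSCs, around 15.0. In Dab1 the median was 19.5 in neurons and 17.7 in NSCs, and by folds over input its median ratio was 0.827. In Klhl29 the medians were 22.3 in neurons and 17.9 in NSCs. At their own start sites Ntm, Dab1 and Pde4d had H3K27me3 without H3K4me3 in both cell types, Klhl29, Odz2 and Kif26b had both marks in both, and Cacna1d had neither.

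The choice of members used no H3K4me3 peak directly, but it barred the start sites of tabled genes, and H3K4me3 marks promoters. In neurons an H3K4me3 peak overlapped 197 members (5.62%, interval 4.88 to 6.44%), against 8.8% of all shared domains of this width and 10.6% of near-gene domains. In NSCs it overlapped 270 members (7.71%, 6.85 to 8.64%), against 14.5% and 18.3%. Peaks in both cell types overlapped 59 members (1.68%), against 5.06% and 6.96%. Near-gene domains can hold a start site themselves, and members by definition cannot, so these shares also describe the rule. The H3K4me3 peaks in members were weak, with a median of 28 reads and a fold of 2.63 in neurons, against 52 reads and 4.06 for that whole list, and with 35.5 reads and 2.77 in NSCs, against 53 reads and 3.99.

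Members with H3K4me3 were wider and denser. Those with H3K4me3 in both cell types had a median width of 10400 bp and medians of 22.9 neuronal and 22.6 NSC H3K27me3 reads per kb, against 7200 bp, 20 and 15.9 for the 3095 members with H3K4me3 in neither. A wider domain has more room for an overlap. Chromosome 1, where input was higher, held 25 of the 59 members with H3K4me3 in both cell types (42.4%), against 13.6% of the 3095. The part of width and of chromosome 1 in this was not tested. In the narrowest width class 3.18% had H3K4me3 in neurons and 5.71% in NSCs, and in the widest class 15.9% in neurons and 20.9% in NSCs.

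The most H3K4me3 reads within members marked in both cell types stood before Fat3 and Mecom. At chr9:16306601-16312400, 123.9 kb before the tabled start of Fat3, H3K4me3 peaks held 157 neuronal and 381 NSC reads, over 27 and 46 input reads. RefSeq's model of Fat3 is longer than the tabled one by 124.5 kb, about that distance. On chromosome 3, chr3:30408401-30418600 and chr3:30393401-30407600 lie 269.0 and 254.0 kb before the tabled start of Mecom, a zinc finger factor gene whose RefSeq model is longer by 269.3 kb. There H3K4me3 peaks held 111 neuronal and 308 NSC reads on the first and 58 neuronal and 240 NSC reads on the second. Between them in NSC reads came chr13:3352001-3360600, 177 kb from Gdi2, with 38 neuronal and 256 NSC reads. Lengths alone were compared, since RefSeq was on another build. By that comparison a longer RefSeq model of a flanking gene could reach 76 members (2.17%), 8 of the 59 with H3K4me3 in both cell types among them.

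Chromosome 1 stood apart and weighed on the H3K4me3 counts. It held 586 members (16.7%, against 14.3% of shared domains), or 29.7 per 10 Mb, where the other autosomes had 6.39 to 26.8. Over its members the input was higher than elsewhere, with medians of 11.4 reads per kb in neurons and 12.5 in NSCs, against 7.87 in neurons and 8.84 in NSCs on the other autosomes. Median fold over input was lower there, 2.01 in neurons and 1.85 in NSCs, against 2.70 and 2.52, while density was 21.6 reads per kb in neurons and 16.8 in NSCs, against 20 and 16. Neuronal peaks covered the median member of chromosome 1 to 76.8%, against 58.3% on the other autosomes. H3K4me3 overlapped 109 of its 586 members in neurons (18.6%) and 80 in NSCs (13.7%), against 88 of 2913 (3.02%) and 190 of 2913 (6.52%) on the other autosomes. Without chromosome 1, the share of members with neuronal H3K4me3 was 3.02% and no longer 5.62%. The part of input in these differences was not tested. Chromosome 9 was the next densest at 26.8 members per 10 Mb, with input medians of 7.63 in neurons and 8.84 in NSCs, close to the other autosomes.

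**Figure D5:**
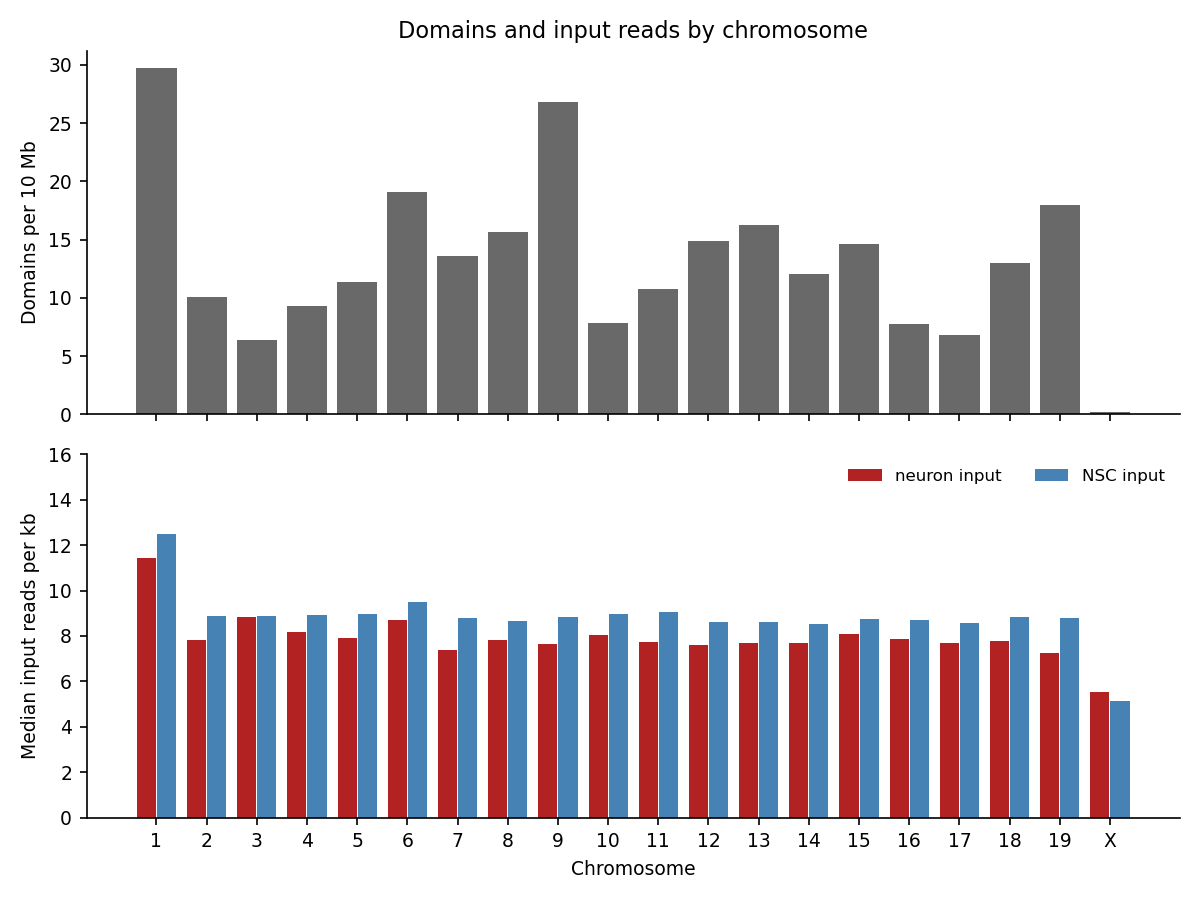
Shared distant domains per 10 Mb of chromosome, measured up to its last listed peak, in the upper panel, and median input reads per kb over those domains in the lower panel, with neuronal input in red to the left of NSC input in blue. Chromosome 1 is highest in domains and in input, chromosome 9 is second in domains with ordinary input, and the X has 4 domains and the lowest input.

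The X chromosome held 4 members, of 15 distant NSC domains of this width, and 18 near-gene domains. Input over the 4 had medians of 5.56 reads per kb in neurons and 5.12 in NSCs, lower than on any autosome. The share of distant NSC domains that were also marked in neurons was 26.7% on the X, 85.4% on chromosome 1 and 56.3 to 78.3% on the other autosomes.

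The 5 farthest members lay in deserts of tabled start sites. The farthest of all, chr15:21036801-21042000, was 1924 kb from the nearest tabled start site, that of Cdh18, a type II cadherin gene. A second at chr15:21512601-21518400 was 1448 kb from the same start site. Genes outside the tables can lie nearer. Density at the first was 25.0 reads per kb in neurons (18.8 to 32.5) and 12.9 in NSCs (9.99 to 16.4), and at the second 18.1 in neurons and 13.1 in NSCs. On chromosome 8, domains at 1562 and 937 kb from Efnb2, an ephrin ligand gene, had 18.1 and 31.0 reads per kb in neurons and 13.5 and 16.2 in NSCs. One within Csmd1, 1083 kb from its start, had 16.7 in neurons and 9.42 in NSCs, the lowest NSC density in the set. These 5 rested on 31 to 145 neuronal and 49 to 94 NSC reads, and none overlapped an H3K4me3 peak.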

How the data were processed

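H3K27me3 and H3K4me3 ChIP and input were measured in neurons and NSCs, 1 library each. Per the labels' protocols, chromatin was fixed with 1% formaldehyde and sheared to about 300 bp. Per the submitters' processing notes, reads went through SICER, SAMtools, Bowtie and FastQC on mm9. Neither versions nor settings are stated in the sources used here. For each peak the authors deposited the ChIP read count, the input read count, a p-value, an FDR (all listed peaks are under 0.001) and a fold, which is the ChIP to input ratio times a constant per library (1.05 in neurons and 1.40 in NSCs for H3K27me3). Other deposited columns give positions. Peaks were called per library. Library totals are unknown, so densities are not scaled for depth.

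Start sites came from the 4 deposited gene tables, of which 14600 genes had a symbol and 14187 of those (97.2%) matched RefSeq. Overlaps, gaps and exact intervals were computed in Python 3.11.15 with pandas 2.3.3, numpy 2.4.6 and scipy 1.17.1, and the overlap code was tested on simulated peaks. Named domains were the extremes of density, ratio, distance, width and H3K4me3 reads, and named genes those that flank or hold the most members. The members, rules and gene lists were chosen with earlier results of these data known. No sequence is printed, since no mm9 genome was used here. Some intervals with 20 or more members are not reported here.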

Additional observations from a re-analysis of the deposited data

How the results depend on the processing

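The values were recomputed under 11 other choices of members and 3 other ratios. The number of members is given for each choice, and of the other values those that moved beyond counting error, with the main values in brackets. Counting error takes domains as independent, which neighbours are not, and the choices share members. A small move is therefore no sign of a difference. Members numbered 5072 with start sites barred within 25 kb, 1924 with start sites barred within 100 kb, 2245 when neurons had to cover 50% of the domain, 1530 with 50% mutual overlap with 1 neuronal peak, 393 with 80%, 714 with both lists at FDR under 1e-20, 2633 under 10000 bp, 870 at 10000 bp or wider, 2917 without chromosome 1, 4674 with start sites of genes with a symbol only and 2166 when the rule started from the neuronal list (3503). The share of distant domains that were shared (72.6%) was 46.5% at 50% cover, 31.7% and 8.14% at 50% and 80% mutual overlap, 48.8% at the strict FDR, 67.7% under 10000 bp, 92.9% at 10000 bp or wider, 70.4% without chromosome 1 and 74.5% with start sites of genes with a symbol only.

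The median ratio of neuronal to NSC reads per kb (1.246) was 1.237 with 25 kb, 1.254 with 100 kb and 1.21 at 50% cover. It was 1.19 and 1.18 at 50% and 80% mutual overlap, 1.13 at the strict FDR, and 1.27 and 1.18 for narrower and wider domains. Scaled by peaks with the same bounds it was 1.27, and by folds over input 1.06. It reversed to 0.738 with reads shared out over the domain, where uncovered length counts as empty by construction. The covered share (61.9%) was 78.3% at 50% cover and 81.4% and 92.9% at 50% and 80% mutual overlap. These settings choose members by neuronal cover. Their higher covered share and lower share of distant domains counted as shared follow from that choice. The covered share was 76.0% at the strict FDR, 59.1% and 68.7% for narrower and wider domains and 58.3% without chromosome 1.

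Members with H3K4me3 in neurons (5.62%) were 6.95% at 50% cover, 6.54% and 8.65% at 50% and 80% mutual overlap, 8.96% at the strict FDR, 3.87% and 10.9% for narrower and wider domains and 3.02% without chromosome 1. For H3K4me3 in NSCs (7.71%) the same settings gave 9.0%, 8.95%, 11.2%, 15.8%, 5.66%, 13.9% and 6.51%. The median gap (11.2 kb) was 15.2 kb at 50% cover, 30.3 and 248.6 kb at 50% and 80% mutual overlap, 30.0 kb at the strict FDR, 24.4 and 45.2 kb for narrower and wider domains, 12.4 kb without chromosome 1 and 9.6 kb with symbol genes only. Members inside a tabled gene (27.3%) were 31.2% with 25 kb, 23.2% with 100 kb and 31.0% for wider domains. The mutual overlap of 80% was chosen after seeing the data. The cause of the other moves was not tested.

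No paired analysis was possible because each cell type had 1 library per antibody, which also leaves no replicate to drop. The lists hold only peaks past the authors' threshold and say nothing of signal below it. Short neuronal peaks with few reads carry wide counting intervals. Input is known only inside peaks, and PCR duplicates and mappability cannot be judged from the lists.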
